A study of Mus musculus with 6 samples.

Results

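TGF-beta, BMP and activin signalling was followed through 39 mouse genes that encode its ligands, receptors and antagonists, across 3 tissues of the hind limb. The genes were picked by symbol for their place in the pathway. They are 39 of 20672 genes in any of the count tables, all 39 were listed for all 3 tissues, and all 39 were among the 15856 genes left by the filter on low counts. Sequenced RNA came from the fat body under the kneecap (the infrapatellar fat pad), the Achilles tendon and the rectus femoris (a thigh muscle, called muscle here), with 2 libraries of each tissue from mice that the series title calls female. Strain, age and genotype are not given in the labels. Letrozole, which blocks oestrogen synthesis by aromatase, is named in both fat pad titles and in no title of tendon or muscle, and the labels mark no treated or untreated library within a tissue. If the name marks a treatment, drug and tissue cannot be told apart wherever the fat pad is compared. Fat pad and tendon titles also carry the word combined, with no statement of what was combined.

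Ligands of this family are secreted as dimers that hold a pair of type I and a pair of type II receptor kinases together, and the type II kinase switches on the type I kinase. TGF-beta, activin and myostatin signal mainly through Smad2 and Smad3, and BMPs and some GDFs through Smad1, Smad5 and Smad9, each with Smad4 as partner. In textbook biology TGF-beta maintains tendon cells and drives matrix synthesis, myostatin limits muscle mass, and BMPs and activins steer the formation of fat cells. Secreted antagonists such as noggin and follistatin bind the ligands, and Smad6 and Smad7 block the receptors from inside the cell.

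Both fat pad libraries were deeper, at 83132413 and 106319037 counts, against 59042675 and 62063826 in tendon, and 56216295 and 58544836 in muscle. Levels are given per library, library 1 before library 2, as read counts scaled to library size (CPM) after TMM scaling (trimmed mean of M-values), and a count of 0 allowed up to 0.0332 CPM in fat pad library 1, 0.0412 in tendon library 2 and 0.0735 in muscle library 1, the higher limit of each pair on the TMM scale, taking 3 counts as the limit and counting error alone. The source and tissue labels call every library fat pad, and the tissue was taken from another label, which the marker genes followed. The 8 adipocyte markers summed to 72598 and 78902 CPM in fat pad, 3731 and 784 in tendon, and 484 and 1144 in muscle. The 8 tendon cell markers summed to 698 and 451 CPM in fat pad, 20191 and 20554 in tendon, and 2156 and 1470.0 in muscle, and the 9 skeletal muscle markers to 199 and 189 CPM in fat pad, 36632 and 69677 in tendon, and 262417 and 237743 in muscle. Other cell types also differed. Higher in fat pad were 5 synovial lining markers, at 15965 and 18261 CPM in fat pad, 1353 and 787 in tendon, and 412 and 421 in muscle. So were 5 bone and osteoclast markers, at 1112 and 1112 CPM in fat pad, 161 and 119 in tendon, and 30.9 and 31.4 in muscle. Toward tendon, 6 smooth muscle and pericyte markers had 949 and 752 CPM (fat pad), 1738 and 1106 (tendon) and 659 and 850 (muscle). The 5 cartilage markers had 10.3 and 8.09, 35.3 and 53.9, and 6.35 and 4.82 CPM in that order. The 4 fibroblast markers had 1574 and 1214, 3807 and 1482, and 1903 and 1557 CPM, so the tendon pair lay on both sides of muscle. Blood markers were high in the fat pad and uneven within it, with 5 erythroid markers at 24039 and 7596 CPM in fat pad, 138 and 46.8 in tendon, and 198 and 182 in muscle, and 7 neutrophil markers at 1803 and 247 CPM in fat pad, 0.812 and 1.02 in tendon, and 6.40 and 5.33 in muscle. The tendon libraries held muscle transcripts and differed in them, with the fast myosin Myh4 at 596 and 19282 CPM and the adipocyte hormone Adipoq at 269 and 24.9 CPM. The 4 Schwann cell markers also split the tendon pair, at 1037 and 62.5 CPM. Whether the libraries of a tissue stem from separate animals, or differ in treatment, is not in the labels. The authors deposited a comparison of library 1 against library 2 for each tissue, so the pairs may not be plain replicates. The p-values reflect the spread between these libraries alone, and that spread may be technical or hold such a treatment difference.

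The tendon pair stood further apart than the other pairs in these genes. Among members counted in both libraries, 3 of 37 lay at least 2-fold apart in the fat pad, 8 of 38 in tendon and 2 of 36 in muscle, with median ratios of the larger to the smaller level of 1.30, 1.30 and 1.20. Gdf11, a ligand close to myostatin, was 12.7-fold and Mstn (myostatin) 12.3-fold higher in tendon library 2. Acvr1c, a receptor of fat cells, was 20.5-fold and Inhbb, an activin subunit, 3.49-fold higher in tendon library 1. Bmp5, Tgfb2 and Acvr1b were 4.72-fold, 2.16-fold and 2.02-fold higher in library 2, and Gdf15, under 1 CPM in both, was 2.04-fold higher in library 1. The authors' deposited TPM (transcript abundance scaled to length and library size) did not follow the counts within this pair or the muscle pair. Its direction between library 1 and library 2 was that of the counts for 36 of 37 members in the fat pad, 20 of 38 in tendon and 15 of 36 in muscle. In TPM, tendon libraries 1 and 2 had 17.3 and 7.45 for Mstn, 17.8 and 16.3 for Gdf11 and 10.9 and 12.9 for Acvr1c. The markers that split this pair by counts had 3689 and 744 for Myh4 and 784 and 880 for Adipoq. Which of the deposited tables holds the right values could not be settled, so counts were used throughout, and for these genes, Gdf15 aside, contrasts with tendon are also given without each tendon library. Such a fit leaves 1 tendon library, whose spread is then assumed to be like that of the other tissues. Its fold changes are therefore given as sizes only.

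**Figure D1:**
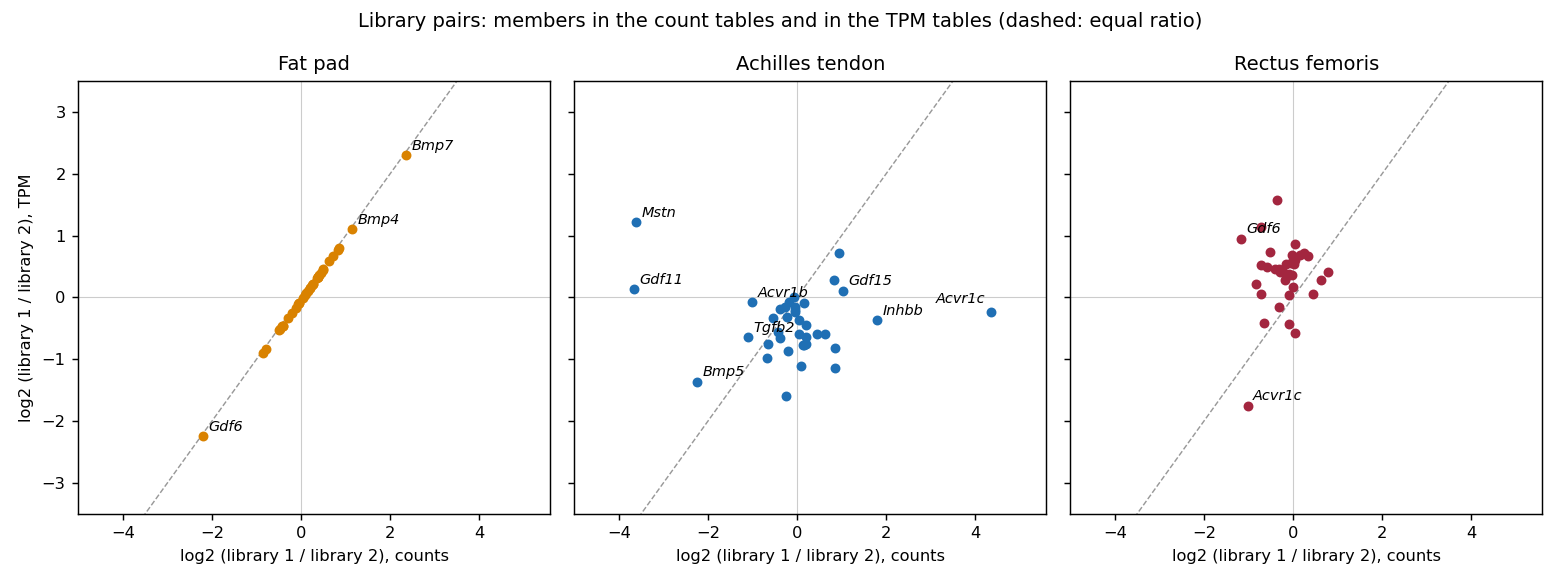
Each point is 1 of the members counted in both libraries of a tissue; the x axis is the log2 ratio of library 1 to library 2 from TMM-scaled counts and the y axis the same ratio from the deposited TPM, and named genes lay at least 2-fold apart in the counts. Fat pad points follow the dashed line of equal ratios, while in tendon Mstn, Gdf11 and Acvr1c lie far from it.

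The fat pad had the lowest levels of many members and the tendon the highest. Tissues were compared with edgeR's quasi-likelihood test and Benjamini-Hochberg adjustment over all genes tested, and a gene is called at an adjusted p of 0.05 or below. Against tendon, 26 of 39 members were lower in the fat pad, beside 31.4% of all genes, and 0 were higher, beside 27.2%. At an unadjusted p under 0.05, and with DESeq2's adjusted p, the count of higher members was also 0, and without tendon library 1 it was 1 (Acvr1c). In the deposited TPM tested with limma (pseudocount 0.1), 30 members were lower and 0 higher, but all genes leaned the same way there, with 53.8% lower and 10.4% higher. Against muscle, the fat pad had 18 members lower, beside 29.6% of all genes, and 7 higher, beside 29.8%. That split was 12 lower and 12 higher with scaling by total counts, which moved the median of all genes by 0.51 on the log2 scale and called 21.6% of all genes lower and 40% higher. It was 23 lower and 5 higher in TPM, beside 39.6% and 20.7% of all genes. For tendon over muscle, 19 were higher in tendon and 1 lower, beside 13.3% and 12.7%, and with scaling by total counts 27 were higher and 0 lower, beside 37.6% and 2.51%. The median log2 fold change of the members was -1.47 (fat pad over tendon), -0.65 (fat pad over muscle) and 1.16 (tendon over muscle), beside -0.01, 0.14 and 0.10 over all genes. These contrasts share libraries, so their counts are not independent of each other. The marker sums given above differed along the same contrasts, and the part of those cell types in the member levels was not tested. In these bulk libraries, fewer cells of a type and less RNA per cell cannot be told apart.

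By tissue, 13 of 39 members were higher in tendon than in both other tissues, beside 6.29% of all genes tested, and 1 was highest in muscle, beside 7.2%. The fat pad was highest for 0 members, beside 20.7% of all genes, by edgeR's adjusted p, by its unadjusted p and by DESeq2, and for 1 (Acvr1c) without tendon library 1. Lowest in the fat pad were 18 members, beside 24.4%, and lowest in muscle were 6, beside 6.8%. Tendon was lowest for 0 members, beside 4.89% of all genes, by the same 3 readings.

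**Figure D2:**
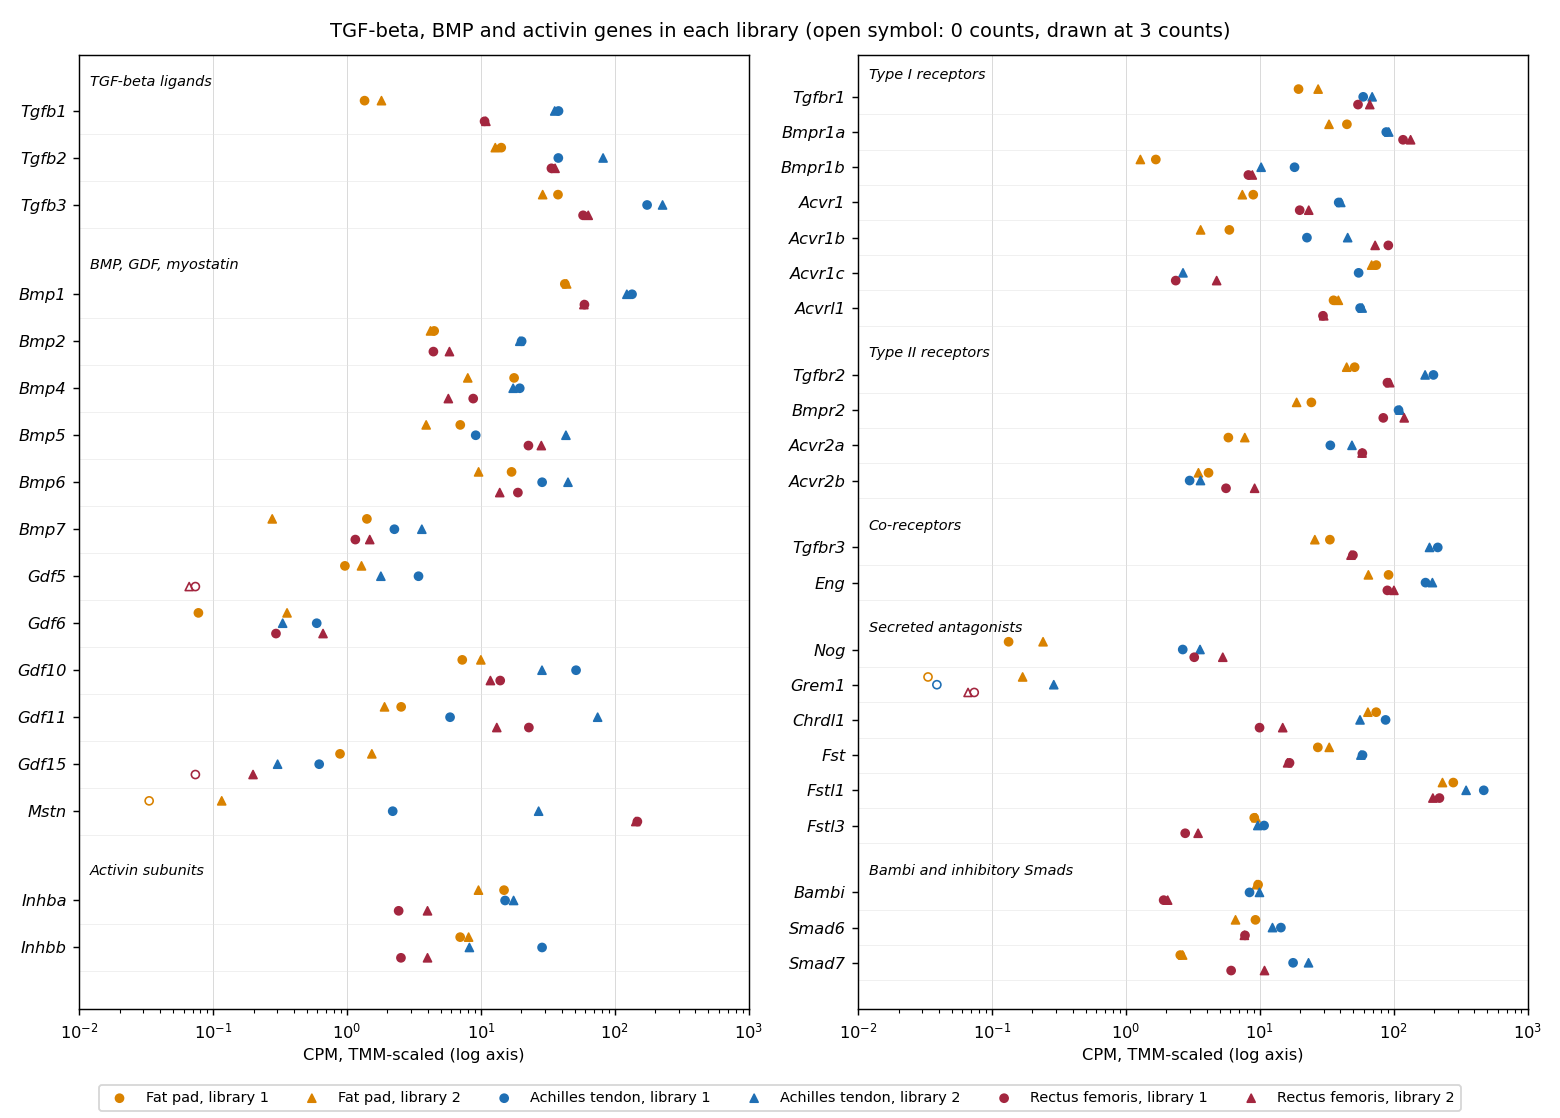
TMM-scaled CPM of the 39 members in each library on a log axis, grouped by role, with circles for library 1 and triangles for library 2; an open symbol marks 0 counts and is drawn at 3 counts. In many rows the fat pad symbols lie furthest left, as for Tgfb1, Bmpr1b, Acvr1b, Acvr2a and Nog, while Acvr1c is high in both fat pad libraries and in tendon library 1.

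All 3 TGF-beta ligands were lowest in the fat pad by edgeR, beside 24.4% of all genes. The fat pad over muscle calls of Tgfb2 and Tgfb3 were lost in some fits with 1 library left out, as given below. Tgfb1, the isoform made by most cell types, had 1.35 and 1.81 CPM in fat pad, 37.9 and 35.5 in tendon, and 10.6 and 10.9 in muscle. The groups did not overlap, and its log2 fold change was -4.54 ± 0.25 for fat pad over tendon (SE, 2 libraries per tissue; adjusted p = 5.56e-05 by edgeR), -2.77 ± 0.23 for fat pad over muscle (adjusted p = 0.000109) and 1.77 ± 0.22 for tendon over muscle (adjusted p = 0.00655). The 6 macrophage markers summed to 879 and 1358 CPM in fat pad, 239.6 and 171 in tendon, and 266 and 246 in muscle, and the part of macrophages in the Tgfb1 levels was not tested. Tgfb3, an isoform prominent in developing tendon, had 37.6 and 28.9 CPM in fat pad, 174 and 227 in tendon, and 57.9 and 63.3 in muscle. Again tendon was highest and the fat pad lowest with no overlap, with log2 fold changes of -2.59 ± 0.24, -0.87 ± 0.23 and 1.73 ± 0.23 for the same 3 contrasts (adjusted p = 0.000178, 0.0145 and 0.00738 by edgeR). With scaling by total counts, fat pad over muscle was -0.35 for Tgfb3 and not called (adjusted p = 0.199 by edgeR). Other annotated genes together cover 12.4% of the exonic bases of Tgfb3. Tgfb2, the isoform that needs the co-receptor betaglycan for tight binding, had 14.2 and 12.8 CPM in fat pad, 37.8 and 81.7 in tendon, and 33.6 and 35.8 in muscle. The fat pad lay below both other tissues, with log2 fold changes of -2.15 ± 0.35 against tendon and -1.36 ± 0.34 against muscle (adjusted p = 0.00193 and 0.0128 by edgeR). Fat pad over tendon for Tgfb2 was -2.55 without tendon library 1 and -1.50 without tendon library 2. Tendon over muscle for Tgfb2 was 0.78 ± 0.34 and not called (adjusted p = 0.129 by edgeR). It was 1.22 without tendon library 1 and 0.13 without tendon library 2.

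**Figure D3:**
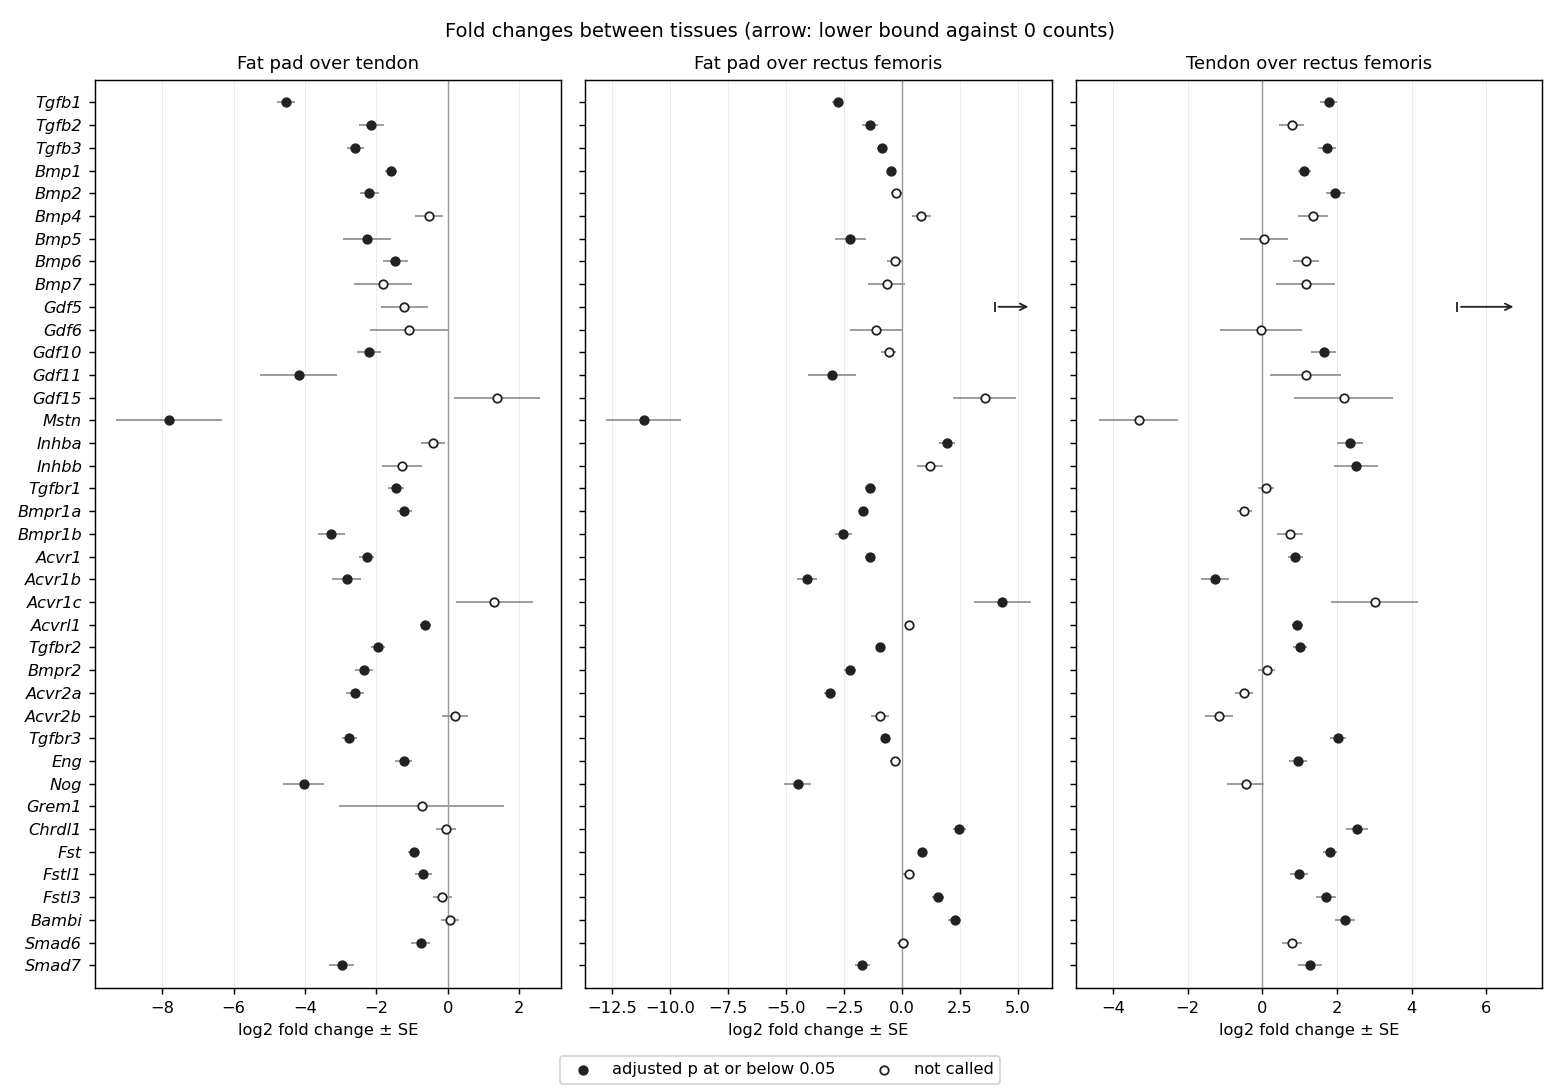
Log2 fold changes with standard errors for the 39 members in the 3 contrasts; filled points have an adjusted p at or below 0.05, open points do not, and an arrow starts at the lower bound for Gdf5, which had 0 counts in muscle. In the fat pad over tendon panel every filled point lies left of 0, and in the tendon over muscle panel Acvr1b is the filled point left of 0.

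Myostatin had the widest range of all members. Mstn, which muscle fibres secrete and which restrains their growth, had 0 and 0.116 CPM in fat pad, 2.19 and 27.0 in tendon, and 147 and 143 in muscle. The raw counts behind these levels were 0 and 13 counts in fat pad, 170 and 1961 in tendon, and 6013 and 6509 in muscle. Both muscle libraries lay above both tendon libraries, which lay above both fat pad libraries. The log2 fold change was -7.82 ± 1.48 against tendon and -11.14 ± 1.61 against muscle for the fat pad (adjusted p = 0.00372 and 0.00105 by edgeR). Both were called in all 15 alternatives, but their size, which rests on 0 and 13 fat pad counts, ranged from -12.90 to -3.57 against tendon and from -16.21 to -7.16 against muscle. Tendon over muscle was -3.32 ± 1.06 and missed the threshold (adjusted p = 0.0595 by edgeR). It was -2.44 without tendon library 1 and -6.05 without tendon library 2. Fat pad over tendon was -8.65 and -5.09 in the same order. By counts, tendon Mstn and the muscle marker sum were both higher in tendon library 2. The sum of the 9 markers was 36632 CPM in library 1 and 69677 in library 2, and Myh4 alone had 596 and 19282. In TPM, Myh4 and Mstn were both higher in tendon library 1, at 3689 and 744 for Myh4 and 17.3 and 7.45 for Mstn. The part of muscle transcripts in the tendon level was not tested.

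Gdf11, whose mature protein is a close relative of myostatin and binds the same receptors, had 2.53 and 1.90 CPM in fat pad, 5.87 and 74.4 in tendon, and 22.8 and 13.1 in muscle. Tendon library 2 held the highest level and tendon library 1 lay below both muscle libraries. The fat pad was lower than both, with log2 fold changes of -4.18 ± 1.07 against tendon and -3.02 ± 1.02 against muscle (adjusted p = 0.0136 and 0.0389 by edgeR). Fat pad over tendon was -5.02 without tendon library 1 and -1.41 without tendon library 2, so its size was set by the library kept. Tendon over muscle, with both tendon libraries, was 1.16 ± 0.95 and not called (adjusted p = 0.392 by edgeR). It was 2.04 without tendon library 1 and -1.61 without tendon library 2, opposite in sign.

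The promoters of these close relatives are shown because Mstn spanned the widest range of levels and Gdf11 shared its tendon difference. RefSeq promoters were at hand for 26 of 39 members. The sequences are the 250 bases before the annotated start on GRCm38.p6, at chr1:53061390-53061639 on the plus strand for Mstn and chr10:128891719-128891968 on the minus strand for Gdf11, given in the direction of transcription with E-boxes (CANNTG, which reads the same on both strands) and TATA motifs (TATAAA, searched on both strands) in capitals.
Mstn: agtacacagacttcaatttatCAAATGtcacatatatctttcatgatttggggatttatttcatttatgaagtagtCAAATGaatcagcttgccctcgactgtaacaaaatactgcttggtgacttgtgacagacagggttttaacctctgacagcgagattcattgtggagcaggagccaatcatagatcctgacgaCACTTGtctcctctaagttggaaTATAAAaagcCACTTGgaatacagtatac
Gdf11: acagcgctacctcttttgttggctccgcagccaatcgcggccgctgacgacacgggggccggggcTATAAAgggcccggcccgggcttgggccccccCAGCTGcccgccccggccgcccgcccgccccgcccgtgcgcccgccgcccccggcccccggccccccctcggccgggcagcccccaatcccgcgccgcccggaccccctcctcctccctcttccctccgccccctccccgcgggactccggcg
The Mstn window held 4 E-boxes and 1 TATA motif, and the Gdf11 window 1 of each. The TATA motif lay at -29 to -24 from the annotated start in Mstn and further off in Gdf11, at -185 to -180. Of 32851 RefSeq promoter windows of that length, 66.2% held at least 1 E-box, 3.84% held 4 or more, and 12.4% held the TATA motif. A match describes the letters and does not show that a factor binds there.

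Of the genes named for BMPs, Bmp1 and Bmp2 were highest in tendon, Bmp5 was lowest in the fat pad, and Bmp4 and Bmp7 were called in 0 contrasts. Bmp2, an inducer of bone and cartilage, had 4.47 and 4.20 CPM in fat pad, 20.1 and 19.5 in tendon, and 4.41 and 5.81 in muscle. Tendon stood above both other tissues, with log2 fold changes of -2.19 ± 0.25 (fat pad over tendon) and 1.95 ± 0.25 (tendon over muscle; adjusted p = 0.000422 and 0.00696 by edgeR), while fat pad over muscle was -0.24 ± 0.25 (adjusted p = 0.428). Bmp4, which commits precursor cells to the fat lineage, had 17.7 and 7.97 CPM in fat pad, 19.5 and 17.4 in tendon, and 8.75 and 5.70 in muscle, was called in 0 of the 3 contrasts and was 2.22-fold higher in fat pad library 1 than in library 2. Bmp6, a ligand also known from iron balance, had 16.9 and 9.59 CPM in fat pad, 28.6 and 44.7 in tendon, and 18.9 and 13.8 in muscle, and the fat pad lay below tendon (log2 fold change -1.47 ± 0.36, adjusted p = 0.0108 by edgeR). Bmp5, a ligand of skeletal development, had 7.00 and 3.89 CPM in fat pad, 9.13 and 43.1 in tendon, and 22.6 and 28.2 in muscle, with the fat pad below tendon (-2.26 ± 0.68, adjusted p = 0.0257) and below muscle (-2.22 ± 0.68, adjusted p = 0.0273). For fat pad over tendon, Bmp5 was -2.94 without tendon library 1 and -0.76 without tendon library 2. Tendon over muscle for Bmp5 was 0.04 ± 0.65 and not called (adjusted p = 0.971 by edgeR). It was 0.75 without tendon library 1 and -1.47 without tendon library 2. Another gene covers 46.7% of the exonic bases of Bmp5. Bmp7, linked to brown fat formation, had 1.40 and 0.276 CPM in fat pad, 2.25 and 3.61 in tendon, and 1.15 and 1.48 in muscle and was not called in any contrast, with the fat pad libraries 5.10-fold apart. Bmp1, which despite its name is a protease that trims procollagen and frees ligands from antagonists, had 42.3 and 43.7 CPM in fat pad, 134 and 123 in tendon, and 59.3 and 58.7 in muscle. It was highest in tendon, at 1.13 ± 0.17 over muscle on the log2 scale (adjusted p = 0.00902 by edgeR), and lowest in the fat pad, at -1.58 ± 0.17 against tendon (adjusted p = 0.000296) and -0.46 ± 0.16 against muscle (adjusted p = 0.0472). That last difference turned to 0.0586 with scaling by total counts.

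Among the GDFs, Gdf5, a ligand of joints and tendons, was counted in fat pad and tendon but not in muscle. It had 0.962 and 1.28 CPM in fat pad, 3.41 and 1.79 in tendon, and 0 and 0 in muscle, which puts the fat pad at least 16.1-fold and tendon at least 37.3-fold higher than muscle, taking 3 counts per muscle library as the limit (adjusted p = 0.00167 and 0.0082 by edgeR). Another gene covers 40.3% of the exonic bases of Gdf5, and without a stated strand setting their reads cannot be told apart. Gdf10, also known as BMP3b, had 7.24 and 9.98 CPM in fat pad, 51.3 and 28.6 in tendon, and 13.9 and 11.8 in muscle. Tendon was highest, with -2.21 ± 0.33 (fat pad over tendon) and 1.64 ± 0.33 (tendon over muscle; adjusted p = 0.00132 and 0.0174 by edgeR). Gdf6, a relative of Gdf5, stayed under 1 CPM in all 6 libraries and was not called. Gdf15, a stress hormone that acts on the brainstem, had 0.885 and 1.53 CPM in fat pad, 0.618 and 0.302 in tendon, and 0 and 0.198 in muscle and was not called either, with fat pad over muscle at 3.56 ± 1.37 (adjusted p = 0.059).

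Both activin subunits were lower in muscle than in tendon, beside 13.3% of all genes. Inhba, the beta A subunit of activin A, had 14.9 and 9.58 CPM in fat pad, 15.1 and 17.5 in tendon, and 2.43 and 3.99 in muscle. Both other tissues lay above muscle with no overlap, at 1.93 ± 0.35 for fat pad over muscle and 2.35 ± 0.35 for tendon over muscle (adjusted p = 0.00296 and 0.00927 by edgeR). In the deposited TPM, tested with limma, the fat pad call for Inhba was lost. Inhbb, the beta B subunit of activin B and a product of fat cells, had 6.99 and 8.08 CPM in fat pad, 28.6 and 8.19 in tendon, and 2.52 and 3.99 in muscle. Tendon over muscle was called, at 2.50 ± 0.59 (adjusted p = 0.0261 by edgeR), and it was 1.32 without tendon library 1 and 3.14 without tendon library 2. Fat pad over tendon, at -1.29 ± 0.56 (adjusted p = 0.0861 by edgeR), was not called. It was -0.07 without tendon library 1 and -1.93 without tendon library 2. In TPM with a pseudocount of 1 it was -2.18 (adjusted p = 0.000155 by limma). By counts, the higher Inhbb of tendon library 1 went with a higher adipocyte marker sum there, 3731 against 784 CPM. In TPM Inhbb had 31.0 in tendon library 1 and 39.9 in library 2. The part of fat cells in the Inhbb level was not tested.

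Of the 7 type I receptors, 6 were lower in fat pad than in tendon, beside 31.4% of all genes, and 5 lower than in muscle, beside 29.6%. Acvr1b, a type I receptor for activin and myostatin, was the member highest in muscle and had 5.92 and 3.61 CPM in fat pad, 22.5 and 45.3 in tendon, and 91.1 and 72.6 in muscle. Levels were lowest in fat pad, then tendon, then muscle, with no overlap, at -2.83 ± 0.40, -4.10 ± 0.42 and -1.27 ± 0.38 (fat pad over tendon, fat pad over muscle, tendon over muscle; adjusted p = 0.00102, 0.000238 and 0.0488 by edgeR). Tendon over muscle was -0.87 without tendon library 1, which ended the call, and -1.86 without tendon library 2. For fat pad over tendon Acvr1b was -3.20 and -2.25 in the same order. Acvr1c, a receptor for activin B that curbs fat breakdown in adipocytes, was the receptor that ran the other way, with 74.1 and 68.4 CPM in fat pad, 54.7 and 2.67 in tendon, and 2.35 and 4.76 in muscle. Both fat pad libraries stood above muscle, at 4.32 ± 1.23 (adjusted p = 0.0205 by edgeR). That call was lost without either fat pad library and without either muscle library. Tendon library 1 stood near the fat pad and tendon library 2 near muscle. Fat pad over tendon, with both tendon libraries, was 1.31 ± 1.08 and not called (adjusted p = 0.326 by edgeR). It was 4.79 without tendon library 1 and 0.37 without tendon library 2. Tendon over muscle, at 3.01 ± 1.17 with both, was not called either (adjusted p = 0.0977 by edgeR). It was -0.43 and 3.94 in the same order. By counts Adipoq was also higher in tendon library 1, while its TPM was 784 in tendon library 1 and 880 in library 2. The part of fat cells in the Acvr1c level was not tested.

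Tgfbr1, the type I receptor for TGF-beta, had 19.5 and 27.3 CPM in fat pad, 59.2 and 69.0 in tendon, and 54.1 and 66.3 in muscle. Tendon and muscle overlapped, and the fat pad lay below them, at -1.46 ± 0.23 against tendon and -1.37 ± 0.23 against muscle (adjusted p = 0.00151 and 0.00198 by edgeR). The BMP receptor Bmpr1a had 44.7 and 32.9 CPM in fat pad, 88.0 and 91.8 in tendon, and 117 and 134 in muscle, lowest in the fat pad, at -1.21 ± 0.21 against tendon and -1.70 ± 0.21 against muscle (adjusted p = 0.00255 and 0.00058). Bmpr1b, the BMP and Gdf5 receptor of cartilage and joints, had 1.67 and 1.28 CPM in fat pad, 18.2 and 10.2 in tendon, and 8.21 and 8.79 in muscle, with -3.27 ± 0.37 and -2.53 ± 0.36 for the same contrasts (adjusted p = 0.000403 and 0.00105). Acvr1, a BMP receptor whose mutation in people turns muscle and tendon to bone, had 8.93 and 7.40 CPM in fat pad, 38.8 and 40.2 in tendon, and 19.8 and 23.2 in muscle. Tendon was highest and the fat pad lowest for Acvr1, at -2.28 ± 0.20, -1.40 ± 0.20 and 0.88 ± 0.20 (fat pad over tendon, fat pad over muscle, tendon over muscle; adjusted p = 0.000171, 0.00101 and 0.0229 by edgeR). Acvrl1, a receptor of blood vessel endothelium, had 35.5 and 38.6 CPM in fat pad, 56.1 and 58.1 in tendon, and 29.6 and 30.0 in muscle and was highest in tendon (-0.62 ± 0.16 for fat pad over tendon, 0.94 ± 0.16 for tendon over muscle; adjusted p = 0.0122 and 0.0117).

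Among the type II receptors, Tgfbr2, which binds TGF-beta first, was highest in tendon, and Bmpr2 and Acvr2a were lowest in the fat pad. Tgfbr2 had 51.1 and 44.5 CPM in fat pad, 198 and 172 in tendon, and 89.8 and 93.4 in muscle, with no overlap and -1.95 ± 0.19, -0.94 ± 0.19 and 1.01 ± 0.19 (fat pad over tendon, fat pad over muscle, tendon over muscle; adjusted p = 0.000228, 0.00469 and 0.0143 by edgeR). With scaling by total counts fat pad over muscle was -0.42 for Tgfbr2 and not called (adjusted p = 0.119). Bmpr2, the BMP type II receptor, had 24.3 and 18.8 CPM in fat pad, 109 and 111 in tendon, and 83.6 and 119.8 in muscle, and the fat pad stood at -2.35 ± 0.25 against tendon and -2.24 ± 0.25 against muscle (adjusted p = 0.000284 and 0.000306). Acvr2a, an activin type II receptor, had 5.82 and 7.72 CPM in fat pad, 33.6 and 48.8 in tendon, and 58.3 and 58.0 in muscle. Its fat pad levels were lowest, at -2.60 ± 0.25 against tendon and -3.10 ± 0.26 against muscle (adjusted p = 0.000217 and 0.000105 by edgeR). Acvr2b, which binds myostatin and activin, had 4.14 and 3.48 CPM in fat pad, 2.99 and 3.60 in tendon, and 5.59 and 9.14 in muscle and was called in 0 of the 3 contrasts, with fat pad over muscle at -0.95 ± 0.37 (adjusted p = 0.0614).

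Both co-receptors were highest in tendon by edgeR, beside 6.29% of all genes, and the tendon over muscle call of Eng was lost in TPM. Tgfbr3 (betaglycan), which presents TGF-beta ligands and binds inhibin, had 33.4 and 25.8 CPM in fat pad, 213 and 185 in tendon, and 49.6 and 48.0 in muscle. Its log2 fold changes were -2.75 ± 0.21 for fat pad over tendon, -0.72 ± 0.20 for fat pad over muscle and 2.03 ± 0.21 for tendon over muscle (adjusted p = 0.00011, 0.0193 and 0.0047 by edgeR). Eng (endoglin), the co-receptor of endothelium that works with Acvrl1, had 91.5 and 64.7 CPM in fat pad, 173 and 195 in tendon, and 89.7 and 100.4 in muscle, with -1.23 ± 0.23 (fat pad over tendon) and 0.95 ± 0.23 (tendon over muscle; adjusted p = 0.00347 and 0.0279). Tested with limma on TPM, tendon over muscle of Eng was 0.72 (adjusted p = 0.055) with a pseudocount of 0.1 and 0.71 (adjusted p = 0.0514) with a pseudocount of 1. Fat pad and muscle overlapped for Eng. The 6 endothelial markers were also highest in tendon, at 306 and 214 CPM in fat pad, 679 and 614 in tendon, and 368 and 440.1 in muscle. Their sum was lower in both fat pad libraries than in muscle. Acvrl1 was higher in both fat pad libraries, at 35.5 and 38.6 CPM, than in muscle, at 29.6 and 30.0, though not called. The part of endothelium in the levels of Eng and Acvrl1 was not tested.

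Antagonists differed among themselves in the tissue where they were low. Noggin (Nog), which blocks BMPs, was lowest in the fat pad, with 0.133 and 0.240 CPM in fat pad, 2.65 and 3.57 in tendon, and 3.23 and 5.28 in muscle. Its log2 fold change was -4.04 ± 0.57 against tendon and -4.49 ± 0.59 against muscle (adjusted p = 0.00102 and 0.000664 by edgeR), while tendon and muscle overlapped. Chrdl1, a chordin-like BMP antagonist, was lowest in muscle, with 74.0 and 64.1 CPM in fat pad, 86.9 and 56.0 in tendon, and 9.95 and 14.8 in muscle. Fat pad and tendon overlapped and both exceeded muscle, by 2.48 ± 0.30 and 2.53 ± 0.30 (adjusted p = 0.000447 and 0.00559 by edgeR). Follistatin (Fst), which traps activin and myostatin, had 27.1 and 33.0 CPM in fat pad, 58.5 and 56.8 in tendon, and 16.7 and 16.1 in muscle. It was highest in tendon and lowest in muscle, at -0.94 ± 0.17, 0.87 ± 0.18 and 1.81 ± 0.18 (fat pad over tendon, fat pad over muscle, tendon over muscle; adjusted p = 0.0034, 0.00474 and 0.00418). In the deposited TPM the fat pad over muscle difference of Fst changed sign, to -0.18 with a pseudocount of 1, and was not called.

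Fstl3, a follistatin-like trap for activin and myostatin, had 9.08 and 9.35 CPM in fat pad, 10.8 and 9.65 in tendon, and 2.77 and 3.46 in muscle. Muscle was lowest, by 1.56 ± 0.27 for fat pad over muscle and 1.71 ± 0.27 for tendon over muscle (adjusted p = 0.00233 and 0.0103 by edgeR), though another gene covers 47.3% of its exonic bases. Fstl1, a secreted glycoprotein of connective tissue, had 279 and 231 CPM in fat pad, 471 and 347 in tendon, and 219.6 and 196 in muscle. Tendon was highest, by 0.98 ± 0.25 over muscle (adjusted p = 0.0319 by edgeR), and fat pad over tendon was -0.68 ± 0.25 (adjusted p = 0.0494). The fat pad over tendon call of Fstl1 was lost with DESeq2 size factors (adjusted p = 0.0812) and with the 2 tissues alone (adjusted p = 0.1), among 8 of 15 alternatives. Gremlin 1 (Grem1), a BMP trap, had 0 and 19 counts in fat pad, 0 and 21 in tendon, and 0 and 0 in muscle, and was not called.

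The inhibitors inside the cell and at its surface fell into different orders. Bambi, a receptor decoy without a kinase, had 9.70 and 9.46 CPM in fat pad, 8.37 and 9.94 in tendon, and 1.91 and 2.05 in muscle. Fat pad and tendon overlapped, and both exceeded muscle, by 2.27 ± 0.28 and 2.21 ± 0.28 (adjusted p = 0.00049 and 0.00655 by edgeR). Smad7, which TGF-beta induces and which shuts down its receptor, had 2.54 and 2.65 CPM in fat pad, 17.7 and 23.1 in tendon, and 6.10 and 10.8 in muscle. Tendon was highest and the fat pad lowest, at -2.97 ± 0.35, -1.70 ± 0.33 and 1.27 ± 0.33 (fat pad over tendon, fat pad over muscle, tendon over muscle; adjusted p = 0.000439, 0.00427 and 0.0334 by edgeR). Smad6, the inhibitor of BMP signals, had 9.27 and 6.58 CPM in fat pad, 14.4 and 12.4 in tendon, and 7.74 and 7.66 in muscle, and fat pad over tendon was called at -0.76 ± 0.26 (adjusted p = 0.0427). For Smad6 this call was lost with DESeq2 size factors (adjusted p = 0.0616) and with the 2 tissues alone (adjusted p = 0.0799).

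Levels of different members were compared per kilobase of exon, as CPM per kb averaged over the 2 libraries of a tissue with their SD. Fstl1 led in the fat pad at 51.9 ± 6.81, followed by Eng at 19.3 ± 4.69, Chrdl1 at 10.2 ± 1.03 and Tgfb3 at 9.83 ± 1.82, the last pair within their spread. In tendon the order was Fstl1 at 83.2 ± 17.7, Tgfb3 at 59.3 ± 11.1, Eng at 45.4 ± 3.79, Tgfbr3 at 30.4 ± 3.05 and Tgfbr2 at 22.6 ± 2.28. Muscle was led by Mstn at 53.7 ± 1.05, then Fstl1 at 42.3 ± 3.38, Eng at 23.5 ± 1.87, Bmpr1a at 19.8 ± 1.81 and Acvr1b at 18.5 ± 2.96. Tgfb3 was thus the most abundant TGF-beta, BMP or activin ligand in fat pad and tendon, and Mstn in muscle, on this scale. By the deposited TPM, Fstl1 led in all 3 tissues and Mstn came second in muscle.

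The wider pathway was read from 63 further genes found in all 3 count tables, of which 59 were tested. The fat pad had 5 higher and 31 lower than tendon, beside 27.2% and 31.4% of all genes. It had 19 higher and 20 lower than muscle, near the 29.8% and 29.6% of all genes. Tendon had 25 higher and 1 lower than muscle, beside 13.3% and 12.7%. Smad3, the signal carrier of TGF-beta, activin and myostatin, was highest in muscle, with 15.2 and 13.9 CPM in fat pad, 82.8 and 101 in tendon, and 165 and 205 in muscle. The 3 tissues did not overlap, at -2.66 ± 0.22, -3.67 ± 0.23 and -1.01 ± 0.21 (fat pad over tendon, fat pad over muscle, tendon over muscle; adjusted p = 0.000126, 5.2e-05 and 0.0182 by edgeR). Of the 6 signal-carrying Smads, the fat pad had 3 below tendon, beside 31.4% of all genes. It had 2 above muscle, near the 29.8% of all genes, and 3 below, beside 29.6%.

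Response genes, which the Smads switch on or off, were read from a list of 11. The fat pad had 2 higher and 3 lower than tendon, beside 27.2% and 31.4% of all genes, which is near those shares. It had 6 higher and 0 lower than muscle, beside 29.8% and 29.6%, and tendon had 10 higher and 0 lower than muscle, beside 13.3% and 12.7%. Id2, an inhibitor of differentiation that BMPs induce, had 100.4 and 90.3 CPM in fat pad, 37.5 and 30.4 in tendon, and 6.20 and 4.71 in muscle. It was highest in the fat pad, by 1.49 ± 0.21 over tendon and 4.13 ± 0.23 over muscle (adjusted p = 0.000931 and 4.79e-05 by edgeR). Id3, of the same family, had 128 and 127 CPM in fat pad, 75.0 and 79.6 in tendon, and 24.5 and 27.3 in muscle, with 0.72 ± 0.17 and 2.30 ± 0.18 for those contrasts (adjusted p = 0.00879 and 8.01e-05).

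Genes that store and free the ligands numbered 13. The fat pad had 2 higher and 9 lower than tendon, beside 27.2% and 31.4% of all genes. It had 3 higher and 4 lower than muscle, near the 29.8% and 29.6% of all genes, and tendon had 7 higher and 0 lower than muscle, beside 13.3% and 12.7%. Pcsk6, a protease that cuts ligand precursors, was highest in the fat pad, with 431 and 353 CPM in fat pad, 81.6 and 61.3 in tendon, and 56.0 and 54.7 in muscle and 2.45 ± 0.24 and 2.82 ± 0.24 over tendon and muscle (adjusted p = 0.000219 and 0.000118 by edgeR). Nrros, which anchors latent TGF-beta on macrophages, had 44.7 and 65.0 CPM in fat pad, 11.0 and 10.1 in tendon, and 10.0 and 8.92 in muscle. It was higher in the fat pad by 2.38 ± 0.24 over tendon and 2.53 ± 0.24 over muscle (adjusted p = 0.000253 and 0.00018), as the macrophage marker sum was, whose part was not tested. Ltbp1 and Ltbp2, of the family that ties latent TGF-beta to the matrix, were highest in tendon. Ltbp1 had 26.1 and 27.6 CPM in fat pad, 96.4 and 75.2 in tendon, and 26.1 and 27.0 in muscle, and tendon over muscle was 1.69 ± 0.19 (adjusted p = 0.00526). Ltbp2 had 18.6 and 10.3 CPM in fat pad, 43.6 and 29.7 in tendon, and 1.37 and 2.09 in muscle, and tendon over muscle was 4.40 ± 0.42 (adjusted p = 0.00398). Tll1, a protease related to Bmp1, had 1.59 and 1.28 CPM in fat pad, 8.05 and 3.68 in tendon, and 1.62 and 1.65 in muscle and 1.84 ± 0.50 for tendon over muscle (adjusted p = 0.0383).

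Among further ligands and antagonists, Lefty1, an inhibitor of nodal signals, was highest in the fat pad, with 12.1 and 8.23 CPM in fat pad, 1.96 and 2.58 in tendon, and 1.54 and 0.661 in muscle. Its log2 fold change was 2.16 ± 0.49 over tendon and 3.21 ± 0.52 over muscle (adjusted p = 0.00815 and 0.00178 by edgeR). Chordin (Chrd), a BMP antagonist that Bmp1 and Tll1 cleave, was highest in tendon, with 7.84 and 4.13 CPM in fat pad, 30.3 and 28.2 in tendon, and 8.43 and 7.05 in muscle. Its log2 fold change was -2.29 ± 0.34 (fat pad over tendon) and 1.92 ± 0.33 (tendon over muscle; adjusted p = 0.00116 and 0.0123 by edgeR).

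**Figure D4:**
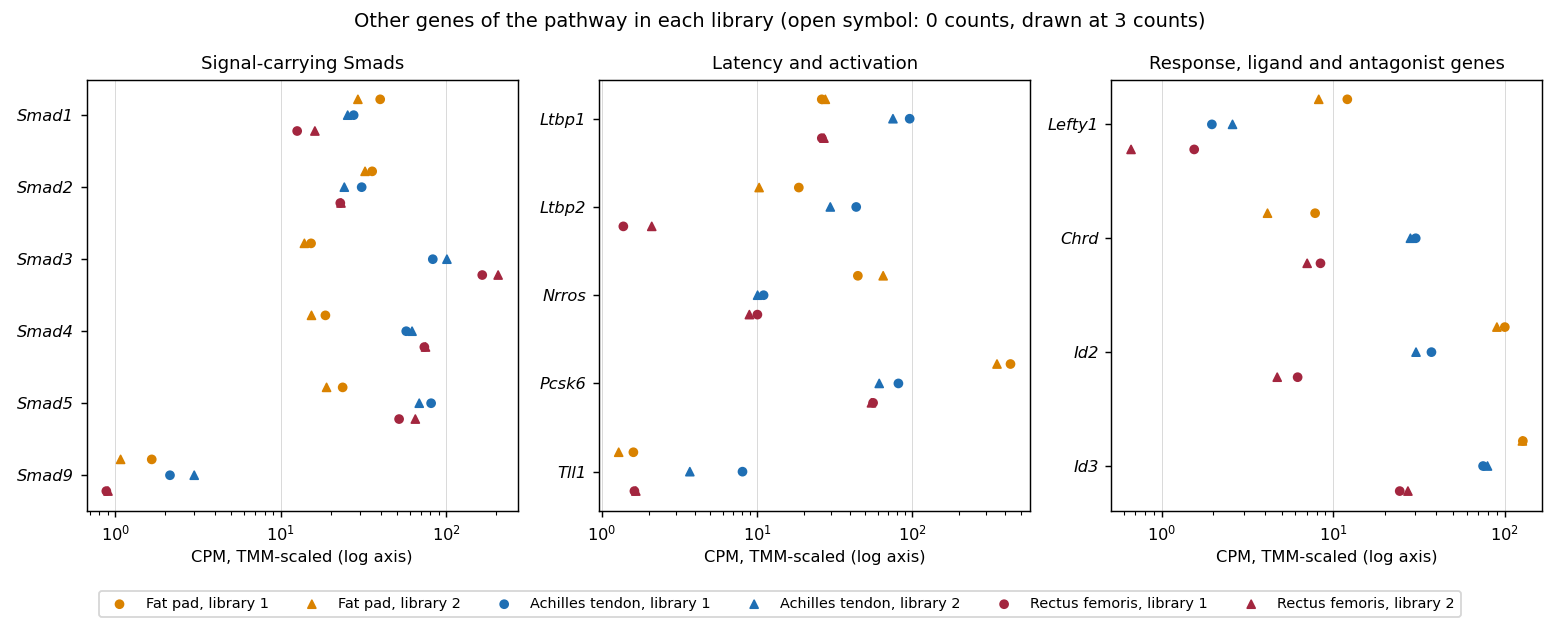
TMM-scaled CPM on a log axis for the signal-carrying Smads and for the genes of latency and activation, of the response and among further ligands and antagonists that are described by name, with circles for library 1 and triangles for library 2; an open symbol marks 0 counts and is drawn at 3 counts. Smad3 runs fat pad, tendon, muscle from low to high, while Id2, Id3 and Pcsk6 are highest in both fat pad libraries.

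Calls depended on single libraries to different degrees. For tendon over muscle, all 20 member calls were lost without muscle library 1 and again without muscle library 2, with adjusted p between 0.0578 and 0.22 by edgeR. At an unadjusted p under 0.05, 23 members were then called without muscle library 1 and 21 without muscle library 2, and of all genes tested 43 and 19 were called at the adjusted threshold. The calls for tendon over muscle, and the 13 members called highest in tendon, thus rest on having both muscle libraries. For fat pad over tendon, losing any 1 library removed between 2 and 5 calls. They were Bmp5, Gdf11, Acvrl1 and Fstl1 without fat pad library 1, Bmp5, Bmp6, Gdf11, Fstl1 and Smad6 without fat pad library 2, Acvrl1, Fstl1 and Smad6 without tendon library 1, Bmp5, Acvrl1 and Smad6 without tendon library 2, and Fstl1 and Smad6 without either muscle library. For fat pad over muscle, the calls of Tgfb2, Bmp1, Bmp5, Gdf11 and Acvr1c were lost without fat pad library 1, and those of the same 5 genes, Tgfb3 and Tgfbr3 without fat pad library 2 or without muscle library 2. Without muscle library 1, Tgfb3, Bmp1, Bmp5, Gdf11, Acvr1c and Tgfbr3 were lost, and without tendon library 1, Bmp1. For tendon over muscle, Acvr1b and Smad7 were lost without either fat pad library, Gdf10, Inhbb, Acvr1, Acvr1b, Fstl1 and Smad7 without tendon library 1, and Acvr1 and Smad7 without tendon library 2. Adjusted p of the calls lost in the fat pad contrasts lay between 0.0513 and 0.207.

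Other settings ended a few calls. With scaling by total counts, the fat pad over muscle calls of Tgfb3, Bmp1, Bmp5, Gdf11, Tgfbr2 and Tgfbr3 were lost (adjusted p between 0.0536 and 0.79 by edgeR), as was the tendon over muscle call of Acvr1b (adjusted p = 0.224). That of Acvr1b was also lost with the 2 tissues alone (adjusted p = 0.0614). The fat pad over muscle call of Bmp1 was lost with DESeq2 size factors (adjusted p = 0.0703), with no filter (adjusted p = 0.0531) and with the 2 tissues alone (adjusted p = 0.0536). In TPM tested with limma, Inhba and Fst were lost for fat pad over muscle, and Acvr1 and Eng for tendon over muscle, Acvr1 at 0.69 (adjusted p = 0.105) with a pseudocount of 0.1.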

How the data were processed

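Per the labels, RNA was extracted from 3 tissues and sequenced as mRNA libraries, 2 per tissue. Bowtie2, RSEM 1.3.1, DESeq2 1.4.5 and the build GRCm39 are listed in the submitters' processing notes, with no role for each. How reads were counted, the strand setting and the annotation were not given in the sources used here. The authors deposited 1 table of unnormalized read counts per gene for each tissue. They also deposited TPM values for protein-coding genes, and, per the file headers, a log2 fold change of library 1 over library 2, a mean log2 CPM, a p-value and its −log10, which were not used here. Of the per-sample columns, 0 were left unused.

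Members were found by symbol in the authors' deposited tables and joined by Ensembl ID. Members and gene lists were chosen with earlier results of these data known. Counts of the 16964 genes in all 3 tables were tested with edgeR 4.0.16 in R 4.3.3 (filterByExpr, TMM, all 6 libraries, 1 term per tissue, quasi-likelihood test, two-sided, Benjamini-Hochberg over 15856 genes, threshold 0.05; biological coefficient of variation 0.336). The standard error is the log2 fold change over the square root of F. A fold against 2 libraries with 0 counts is given as a lower bound, at 3 counts in each. Alternatives were total-count and DESeq2 size factor scaling, DESeq2 1.42.0, other filters, the 2 tissues alone, limma 3.58.1 on log2(TPM + 0.1) and log2(TPM + 1), each library left out, and the library number as a block. Exon lengths and overlaps came from GENCODE M21 on GRCm38, matched by Ensembl ID, so gene coordinates are not given. Named genes are all members and, of other pathway genes, up to 5 per tissue called higher in both contrasts of that tissue, by the smaller fold change; 1 gene so chosen is not reported here.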

Additional observations from a re-analysis of the deposited data

How the results depend on the processing

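Of 71 member calls, the 2 of Gdf5 have a bound in place of a fold and were lost only in tendon over muscle, without muscle library 1 or 2 (adjusted p = 0.0628 and 0.0578); they were not tested in TPM. Of the other 69, all 69 were also called with DESeq2, and 42 and 41 without muscle library 1 and 2; all kept their direction in all alternatives, with the exceptions of Bmp1 and Fst below. Tendon over muscle, with 4127 genes called, gave 6367 with scaling by total counts, and 19 to 4380 with 1 library left out. Members called there, 20, ranged from 0 to 22 with 1 library left out, other pathway genes, 26, from 0 to 28, and members highest in tendon, 13, from 0 to 12; the lone library then is assumed to vary like the other tissues, and the cause was not tested. Bmp1 in fat pad over muscle turned to 0.0586 with total counts, and Fst turned to -0.19 and -0.18 in TPM with pseudocounts of 0.1 and 1; the cause was not tested. With total counts the median of all genes shifted by -0.21 (fat pad over tendon), 0.51 (fat pad over muscle) and 0.73 (tendon over muscle) (DESeq2 size factors by 0.11, 0.04 and -0.07), and split the members 12 higher to 12 lower for fat pad over muscle, beside 6350 to 3420 of all genes, and 27 to 0 for tendon over muscle, beside 5969 to 398.

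Deviations from the tissue means, matched by library number, correlated at 0.002 for fat pad and tendon over 15856 genes. They correlated at -0.027 for fat pad and muscle and -0.167 for tendon and muscle. With a single pair of libraries per tissue, these values cannot show whether equal numbers mark the same animals. With the library number as a replicate block, 23 members were called for fat pad over tendon, 24 for fat pad over muscle and 18 for tendon over muscle, and 8650, 8649 and 2759 of all genes. Calls lost with the block were Bmp5, Fstl1 and Smad6 for fat pad over tendon, Bmp1 for fat pad over muscle, and Inhbb, Acvr1b, Eng and Fstl1 for tendon over muscle (adjusted p between 0.0501 and 0.1). Where a library had 0 counts, depth bounds the level: a fold of Gdf5 over muscle can be given only as a lower bound.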

Other observations

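Some further pathway genes, picked after their values were seen, were also low in the fat pad. Of the 63 further genes, 20 were called lowest in the fat pad, beside 24.4% of all genes tested. Hjv (hemojuvelin), a BMP co-receptor of muscle and liver that governs iron balance, had 0.929 and 3.26 CPM in fat pad, 245 and 391 in tendon, and 996 and 806 in muscle. The fat pad stood lowest, at -7.24 ± 0.71 against tendon and -8.74 ± 0.76 against muscle on the log2 scale (adjusted p = 0.000223 and 0.000121 by edgeR's quasi-likelihood test). Both muscle libraries lay above both tendon libraries, but tendon over muscle was not called (-1.50 ± 0.55, adjusted p = 0.0853 by edgeR). Wfikkn2, a secreted protein that binds myostatin and Gdf11, had 0 and 0.222 CPM in fat pad, 4.37 and 6.32 in tendon, and 19.2 and 16.0 in muscle, in the order of Mstn itself. The fat pad stood at -5.50 ± 1.01 against tendon and -7.22 ± 1.07 against muscle (adjusted p = 0.00324 and 0.00121 by edgeR). Tendon over muscle of Wfikkn2 was not called (-1.72 ± 0.81, adjusted p = 0.156 by edgeR). Inha, the alpha subunit that turns an activin subunit into inhibin, had 0.243 and 0.151 CPM in fat pad, 4.95 and 7.71 in tendon, and 5.83 and 5.99 in muscle, so that the fat pad lay below both other tissues while the activin subunit Inhba was lowest in muscle. Itgb6, an integrin chain that frees TGF-beta from its latent form, had 1.28 and 0.222 CPM in fat pad, 20.3 and 33.1 in tendon, and 26.9 and 35.6 in muscle.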
